A study of Mus musculus with 6 samples.

Results

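The transcripts described here are 10 genes of the heat shock system that male germ cells are known to use, chosen by symbol from a fixed list, out of 54532 genes in the count table. They comprise 4 chaperone genes best known for constitutive expression in germ cells (Hspa2, Hspa1l, Hspa4l and Hspb9), 2 chaperone genes that also belong to the stress-inducible set (Hsph1 and Hsp90aa1), 2 broadly expressed chaperone genes (Hspa8 and Hspa4) and 2 heat shock transcription factor genes (Hsf1 and Hsf2). RNA from whole mouse testis was measured in 3 libraries from knockout testes lacking the long non-coding RNA gene 1700052I22Rik (KO) and 3 libraries from wild-type testes (WT). The sources used here do not state the strain and age of the mice or the deleted part of the gene. No source used here says that replicates were separate animals, so p-values measure only the spread between these libraries.

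Heat shock proteins are chaperones that hold, fold or release other proteins. Hsp70 proteins bind unfolded stretches, Hsp110 proteins act as nucleotide exchange factors for Hsp70, Hsp90 proteins mature client kinases and receptors, and small heat shock proteins bind unfolding proteins without using ATP. In most cells heat shock factor 1 switches on the inducible members by binding inverted repeats of the pentamer nGAAn, the heat shock element. Male germ cells differ in that several chaperone genes are transcribed without stress as part of meiosis and spermatid development.

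The libraries were even in depth, with 17635045 to 17957707 counts in KO and 17794450 to 18117593 in WT. The targeted gene had 0 counts in each KO library, against 185, 175 and 218 in the WT libraries. Taking 3 counts over the KO group as the limit that 0 counts allow, KO testes held at least 189-fold less of it, a bound on counting error alone. All 8 Leydig cell markers and all 8 macrophage markers examined had log2 fold changes below 0, none passing the test. Of these, 1 Leydig cell and 4 macrophage markers had an unadjusted p under 0.05 in edgeR, where 4.63% of all tested genes had such a p. The Leydig cell marker was Insl3, which did not overlap between groups (log2 fold change -0.94, adjusted p = 0.965 in edgeR). With no low-count filter, a setting that called 50 genes over the whole table, Insl3 had an adjusted p of 2.05e-17 in edgeR. Without WT 1 and KO 2 it had one of 0.0484 in edgeR. That pair had the lowest summed Leydig cell levels, and KO 2 the lowest Insl3 (17.4 CPM), so this omission was not independent of the markers. Over the other alternatives its adjusted p ran from 0.078 to 1.0, and in DESeq2 its unadjusted p was 0.0614. The summed Leydig cell level was 687.1, 296.5 and 490.8 CPM (counts per 1000000 library counts) in KO 1 to KO 3, against 263.7, 926.7 and 729.0 CPM in WT 1 to WT 3. The summed macrophage level lay between 52.8 and 66.9 CPM in KO and between 62.0 and 91.1 CPM in WT. KO 2 and WT 1 were the low pair for the summed Leydig cell level, though not for every marker. Insl3 in WT 1 (78.7 CPM), for example, stood above all KO libraries. KO 2 and WT 1 also stood apart for some heat shock transcripts described below. The summed spermatogonial markers lay between 91.8 and 98.0 CPM in KO and between 102.0 and 108.2 CPM in WT, without overlap. Of the 8 genes 5 had log2 fold changes below 0 and 3 above, from -0.30 to 0.37, so the direction was mixed. An unadjusted p under 0.05 in edgeR was found for 2 of the 8, Etv5 and Dmrt1, both with lower KO means. The part of these cells in the results below was not tested. The summed spermatocyte markers lay between 3089 and 3474 CPM in KO and between 3300 and 3559 CPM in WT. No marker of these germ-cell lists, nor of the round or elongating spermatid lists, was at 0 in all libraries.

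The promoter sequences are shown for their letters around the start sites, searched for the heat shock element. RefSeq promoter windows on GRCm38.p6 were matched for 7 of the 10 genes, and Hsp90aa1, Hspa8 and Hsf1 were not matched. Each window printed holds 250 bases before the start site and 30 after it, read 5′ to 3′ on the gene's strand, with capitals marking matches to a heat shock element of 2 or 3 units (GAANNTTC or TTCNNGAA, and GAANNTTCNNGAA or TTCNNGAANNTTC; the first pair reads the same on both strands). Hspa2 and Hspa1l are 2 of the germ-cell genes, and Hsph1 is the inducible gene of the 10 that had a window, so no difference between the classes can be drawn from these windows. Hspa1a, the classical inducible Hsp70 gene and not one of the 10, is shown because it lies head to head with Hspa1l, their start sites 547 bases apart.
Hspa2: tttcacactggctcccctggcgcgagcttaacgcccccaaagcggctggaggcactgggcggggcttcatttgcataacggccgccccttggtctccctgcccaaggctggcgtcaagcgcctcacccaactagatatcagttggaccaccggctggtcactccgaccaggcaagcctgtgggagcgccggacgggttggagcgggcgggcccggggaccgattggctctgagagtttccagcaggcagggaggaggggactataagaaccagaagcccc
Hspa1l: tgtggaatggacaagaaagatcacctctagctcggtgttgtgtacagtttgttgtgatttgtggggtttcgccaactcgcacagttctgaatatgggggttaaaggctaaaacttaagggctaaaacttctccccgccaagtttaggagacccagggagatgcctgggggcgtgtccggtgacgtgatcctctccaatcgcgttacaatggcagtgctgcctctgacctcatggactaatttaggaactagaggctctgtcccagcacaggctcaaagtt
Hsph1: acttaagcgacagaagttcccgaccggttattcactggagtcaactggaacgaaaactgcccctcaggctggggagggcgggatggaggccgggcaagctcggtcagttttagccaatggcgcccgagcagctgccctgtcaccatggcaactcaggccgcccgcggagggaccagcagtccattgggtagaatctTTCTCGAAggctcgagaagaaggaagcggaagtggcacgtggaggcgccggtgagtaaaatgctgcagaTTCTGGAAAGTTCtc
Hspa1a: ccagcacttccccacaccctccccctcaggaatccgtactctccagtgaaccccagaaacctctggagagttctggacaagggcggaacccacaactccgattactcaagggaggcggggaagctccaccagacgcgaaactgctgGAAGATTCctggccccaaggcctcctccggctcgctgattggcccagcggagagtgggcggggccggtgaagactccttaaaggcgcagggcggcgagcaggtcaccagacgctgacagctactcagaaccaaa
The windows are chr12:76404120-76404399 (plus strand), chr17:34972453-34972732 (plus), chr5:149636286-149636565 (minus, the second of 2 annotated starts) and chr17:34972127-34972406 (minus). In the deposited table the Hspa2 gene begins before this start site, so 224 bases of its window lie inside the annotated gene, as do 91 bases of the Hsph1 window.

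The Hsph1 window held a match to the element at 54 bases before the start (TTCTCGAA) and a 3-unit match from base 16 after it (TTCTGGAAAGTTC). The window of the other annotated Hsph1 start held the same TTCTCGAA, at 33 bases before that start, and no 3-unit match. Hspa1a held 1 match, GAAGATTC at 104 bases before its start. The windows of Hspa2, Hspa1l, Hspb9, Hspa4l, Hspa4 and Hsf2 held none. Among 32851 promoter windows of the same length, 14.2% held a 2-unit match and 0.563% a 3-unit match, so having neither is the usual state of a window. The cyclic AMP response element TGACGTCA, searched as it reads the same on both strands, was in 1.74% of windows and in none of these 9 genes' windows, which include Hspa1b. A CCAAT box (CCAAT or ATTGG) was present in Hspa2, Hspa1l, Hsf2, Hsph1, Hspa1a and Hspa1b, and in 36.1% of all windows. These are letter matches and not measured binding.

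Among the 4 germ-cell chaperone genes, Hspb9 and Hspa2 were per length among the most abundant transcripts of the testis in both genotypes, and Hspa4l and Hspa1l stood lower. Levels between genes were compared as CPM divided by the deposited gene length (CPM per kb). Hspb9, a small heat shock protein gene expressed mainly in testis, ranked 27 in KO and 24 in WT among 19320 tested genes, and Hspa2 ranked 60 in KO and 57 in WT. Hspa4l ranked 697 in KO and 762 in WT, and Hspa1l ranked 816 in KO and 883 in WT. By reads alone the order of Hspa4l and Hspb9 turned. Hspa4l then ranked 55 in KO and 59 in WT, and Hspb9 172 in KO and 145 in WT, with deposited lengths of 11792 and 726 bases. Hsp90aa1, which encodes the alpha form of cytosolic Hsp90, ranked 47 in KO and 52 in WT, and by reads alone 12 in KO and 13 in WT. The lowest of the 10 were Hsph1, Hsf2 and Hsf1, at ranks 6557, 7729 and 8239 over all 6 libraries, above the middle of the tested genes.

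Hspb9 averaged 875 ± 56.9 CPM per kb in KO and 947 ± 39.3 in WT (SD, n = 3 each here and below). Hsp90aa1 averaged 613 ± 34.4 CPM per kb in KO and 587 ± 36.7 in WT, and Hspa2 averaged 541 ± 18.1 in KO and 566 ± 24.6 in WT. The library ranges of Hsp90aa1 and Hspa2 overlapped, so their order is not settled by this length, whereas Hspb9 lay above both in every library. A second tier held Hspa4l, Hspa1l and Hspa4, with means over all 6 libraries of 94.3, 83.0 and 72.5 CPM per kb and overlapping ranges between neighbours, then Hspa8 at 61.2. Hsph1 (7.43 CPM per kb), Hsf2 (5.50) and Hsf1 (4.84) formed the lowest tier, and Hsf2 overlapped Hsf1. The deposited length is the union of all annotated exons for these 10 genes, which is long for genes with many transcript forms. With the length of the annotated principal transcript, an alternative added after the data were seen, Hspb9, Hsp90aa1 and Hspa2 kept the first 3 places without overlap, Hspa8 moved up to the fifth place (110 CPM per kb) and Hsph1 moved to the last (14.2), below Hsf2 (20.3) and Hsf1 (16.5).

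**Figure D1:**
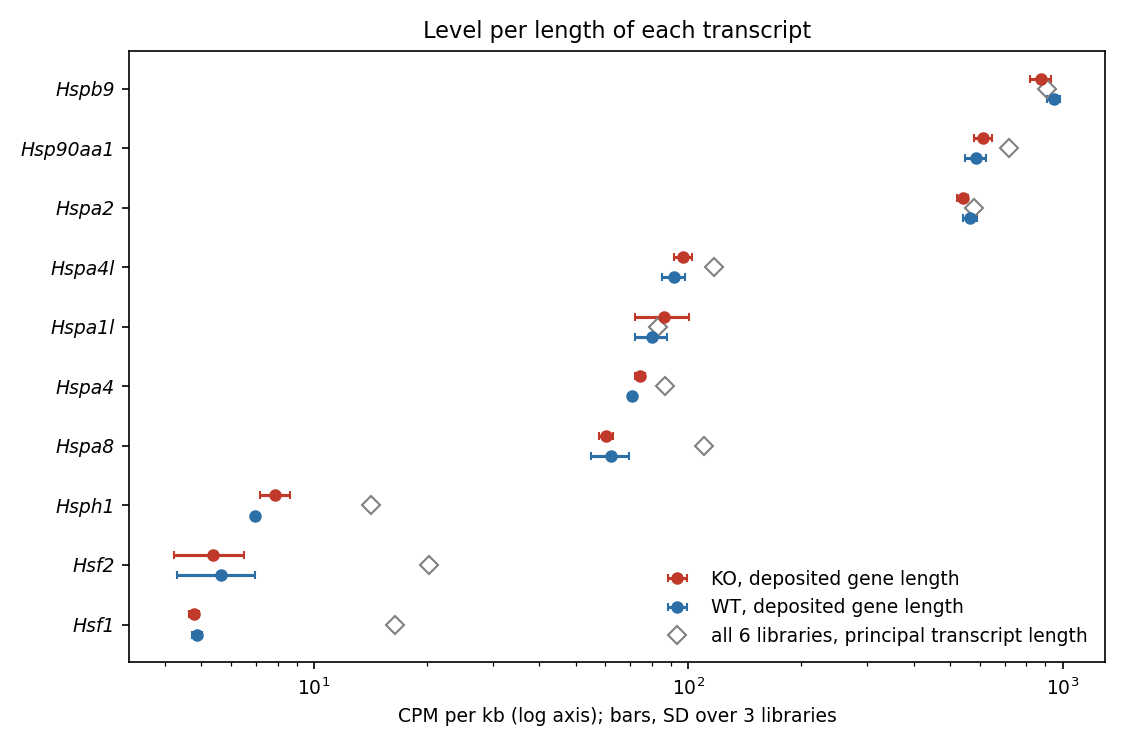
Level of each transcript in CPM per kb on a log axis, KO above WT, with points for the mean of 3 libraries by deposited gene length, bars for the SD, and open diamonds for the mean of 6 libraries by principal transcript length. Hspb9, Hsp90aa1 and Hspa2 have means from 541 to 947 CPM per kb, and those of Hsph1, Hsf2 and Hsf1 lie from 4.79 to 7.89 by the deposited length.

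Within each chaperone family a single germ-cell or alpha form took the largest share of the level. Hspa2, the Hsp70 gene needed for meiosis in male mice, held 57.0 ± 0.494% of the summed CPM per kb of 11 Hsp70 family genes in KO and 58.1 ± 1.26% in WT. Hspa5, the chaperone of the endoplasmic reticulum, came next at 16.9 ± 0.853% in KO and 17.1 ± 1.20% in WT. Hspa1l, the Hsp70 gene of spermatids, held 9.08 ± 1.46% in KO and 8.20 ± 0.882% in WT. Hspa8, the constitutive Hsp70 of most cells, held 6.36 ± 0.307% in KO and 6.37 ± 0.622% in WT. By principal transcript length the order of these last 2 genes turned, with Hspa8 between 9.48 and 10.4% in KO and between 8.94 and 10.7% in WT. Hspa1l then lay between 6.53 and 9.02% in KO and between 6.46 and 8.02% in WT, below Hspa8 in each library. Hspa2 stood 8.60 to 9.57 times above Hspa8 in KO libraries and 8.67 to 10.1 times above it in WT libraries per length. By principal transcript length the ratios of Hspa2 to Hspa8 were 5.01 to 5.58 in KO and 5.05 to 5.88 in WT.

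The classical inducible genes had few counted reads by comparison. Hspa1a had 4.44, 4.93 and 3.31 CPM in KO 1 to KO 3, against 4.71, 4.51 and 3.19 CPM in WT 1 to WT 3. Hspa1b had 2.87, 3.29 and 3.14 CPM in KO and 2.99, 2.45 and 3.46 CPM in WT. The groups overlapped for both genes, and their shares of the family reached at most 0.173% for Hspa1a and 0.127% for Hspa1b in any library. Their coding sequences are near-identical copies, and their promoter windows differed at 4 of 280 bases, so reads of the pair may be split between them. How reads matching both genes were counted is not stated. If such reads were left out, the levels and shares of both genes would be underestimates. Hspa1l, whose start lies next to that of Hspa1a, averaged 86.1 ± 14.2 CPM per kb in KO and 79.8 ± 7.78 in WT, where Hspa1a averaged 1.42 ± 0.281 in KO and 1.39 ± 0.278 in WT.

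In the Hsp110 family Hspa4l, known in mice to be required for normal sperm development, held 45.9 ± 1.41% in KO and 45.7 ± 1.84% in WT. Its broadly expressed relative Hspa4 held 35.2 ± 0.144% in KO and 35.3 ± 1.08% in WT, and the stress-inducible Hsph1 held 3.74 ± 0.329% in KO and 3.49 ± 0.143% in WT. The remainder was Hyou1, of the endoplasmic reticulum. In the Hsp90 family Hsp90aa1 held 68.6 ± 1.21% in KO and 67.4 ± 2.13% in WT. Hsp90ab1, the constitutive cytosolic form, held 12.4 ± 0.728% in KO and 13.4 ± 1.34% in WT. Although Hsp90aa1 is counted with the inducible genes, it stood 5.06 to 5.77 times above Hsp90ab1 per length in KO libraries and 4.60 to 5.89 times above it in WT libraries. Among small heat shock protein genes Hspb9 held 34.0 ± 2.37% in KO and 36.5 ± 0.488% in WT, second to Odf1, which encodes a protein of the sperm outer dense fibres (63.9 ± 2.46% in KO and 61.2 ± 0.471% in WT).

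**Figure D2:**
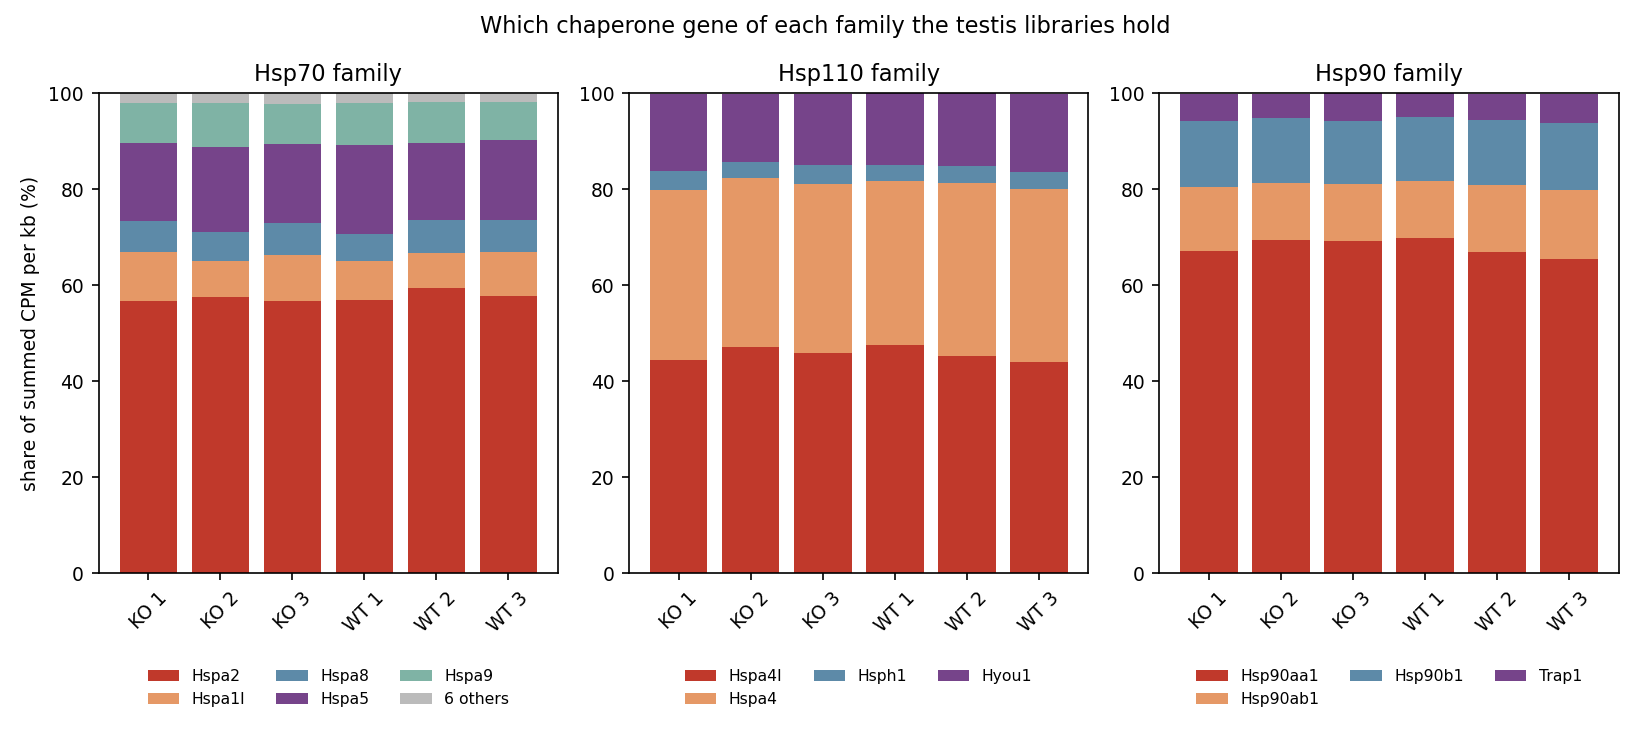
Share of the summed CPM per kb of each chaperone family taken by each gene, in percent, with 1 bar per library and KO libraries left of WT libraries. Hspa2 fills 56.7% or more of the Hsp70 bars and Hsp90aa1 65.6% or more of the Hsp90 bars, and Hspa4l is the largest part of the Hsp110 bars.

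The comparison of KO with WT asked whether loss of 1700052I22Rik went with a change in these transcripts. None of the 10 genes passed the quasi-likelihood test of edgeR after Benjamini-Hochberg correction over all 19320 tested genes, where 1 gene (0.00518%), the target itself, was called. None had an unadjusted p under 0.05 either, against 4.63% of all tested genes, and DESeq2, which called 0.0104% of all genes, and limma-voom also called 0 of the 10. Leaving out libraries brought 3 of the 10 genes below 0.05 before adjustment in edgeR, namely Hsph1 (0.0143) and Hspa1l (0.0267) without KO 2, where 7.34% of all tested genes had such a p, and Hspb9 (0.0393) without KO 1, where 5.42% had one. Hsph1 also had one (0.0273) without WT 1 and KO 2 together, where 8.51% did. Without KO 3, WT 1, WT 2 or WT 3 it was 0 of the 10 genes, where 2.48%, 7.14%, 2.94% and 4.36% of all tested genes had such a p. The adjusted p of each was 0.519 or higher. All 10 had passed the low-count filter. Log2 fold changes ran from -0.12 to 0.18 with 5 above and 5 below 0, a median of 0.02 beside -0.0025 over all tested genes. In whole testis, fewer cells of a type and less RNA per cell cannot be told apart.

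Among the germ-cell genes, Hspa2 had 1457, 1461 and 1376 CPM in KO 1 to KO 3, against 1442, 1569 and 1482 CPM in WT 1 to WT 3. The groups overlapped through WT 1, and the log2 fold change was -0.07 (95% interval -0.19 to 0.06, adjusted p = 0.967 in edgeR). Hspa2 lies on the chromosome of the deleted gene, 4.52 Mb away, and Hsp90aa1 lies 29.8 Mb away on the same chromosome. Hspb9 had 681.5, 602.5 and 620.9 CPM in KO, against 658.5, 715.5 and 689.3 CPM in WT. KO 2 and KO 3 lay below all WT libraries and KO 1 among them (log2 fold change -0.12, 95% interval -0.26 to 0.03, adjusted p = 0.965 in edgeR).

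Hspa4l had 1072, 1177 and 1184 CPM in KO, against 1160, 1061 and 1015 CPM in WT. The groups overlapped, with a log2 fold change of 0.09 and a 95% interval of -0.06 to 0.23. Hspa1l varied most among the 4, with 246.6, 176.4 and 215.7 CPM in KO and 191.5, 181.8 and 218.9 CPM in WT. The highest and the lowest of the 6 values were both KO libraries, and the log2 fold change was 0.11 (95% interval -0.12 to 0.34). Without KO 1 the log2 fold change of Hspa1l was -0.00883, so its sign rested on that library.

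The inducible pair both had values slightly above 0. Hsph1, whose protein is the stress-inducible Hsp110 of the cytosol, had 58.8, 51.5 and 61.7 CPM in KO, against 49.8, 51.2 and 50.8 CPM in WT. All KO libraries lay above all WT libraries, KO 2 only by a small margin. The log2 fold change was 0.18 (95% interval -0.01 to 0.38), with an unadjusted p of 0.0672 and an adjusted p of 0.965 in edgeR. Over the 15 alternative settings its adjusted p ran no lower than 0.519, the smallest found for any of the 10 genes. Hsp90aa1 had 2266, 2534 and 2432 CPM in KO, against 2433, 2338 and 2150 CPM in WT. These ranges overlapped (log2 fold change 0.06, 95% interval -0.07 to 0.20).

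Of the broadly expressed chaperones, Hspa4 was the steadier, with 400.1, 410.0 and 423.4 CPM in KO, against 388.3, 395.4 and 386.9 CPM in WT. Here too the groups did not overlap, at a log2 fold change of 0.08 (95% interval -0.06 to 0.21). Hsph1 and Hspa4 were thus the 2 of 10 genes without overlap, both higher in KO, where 9.32% of all tested genes showed no overlap in either direction and 4.69% with KO higher. Hspa8 had 269.7, 248.2 and 260.3 CPM in KO, against 232.6, 291.1 and 278.2 CPM in WT (log2 fold change -0.04). Its KO libraries all fell inside the WT range.

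**Figure D3:**
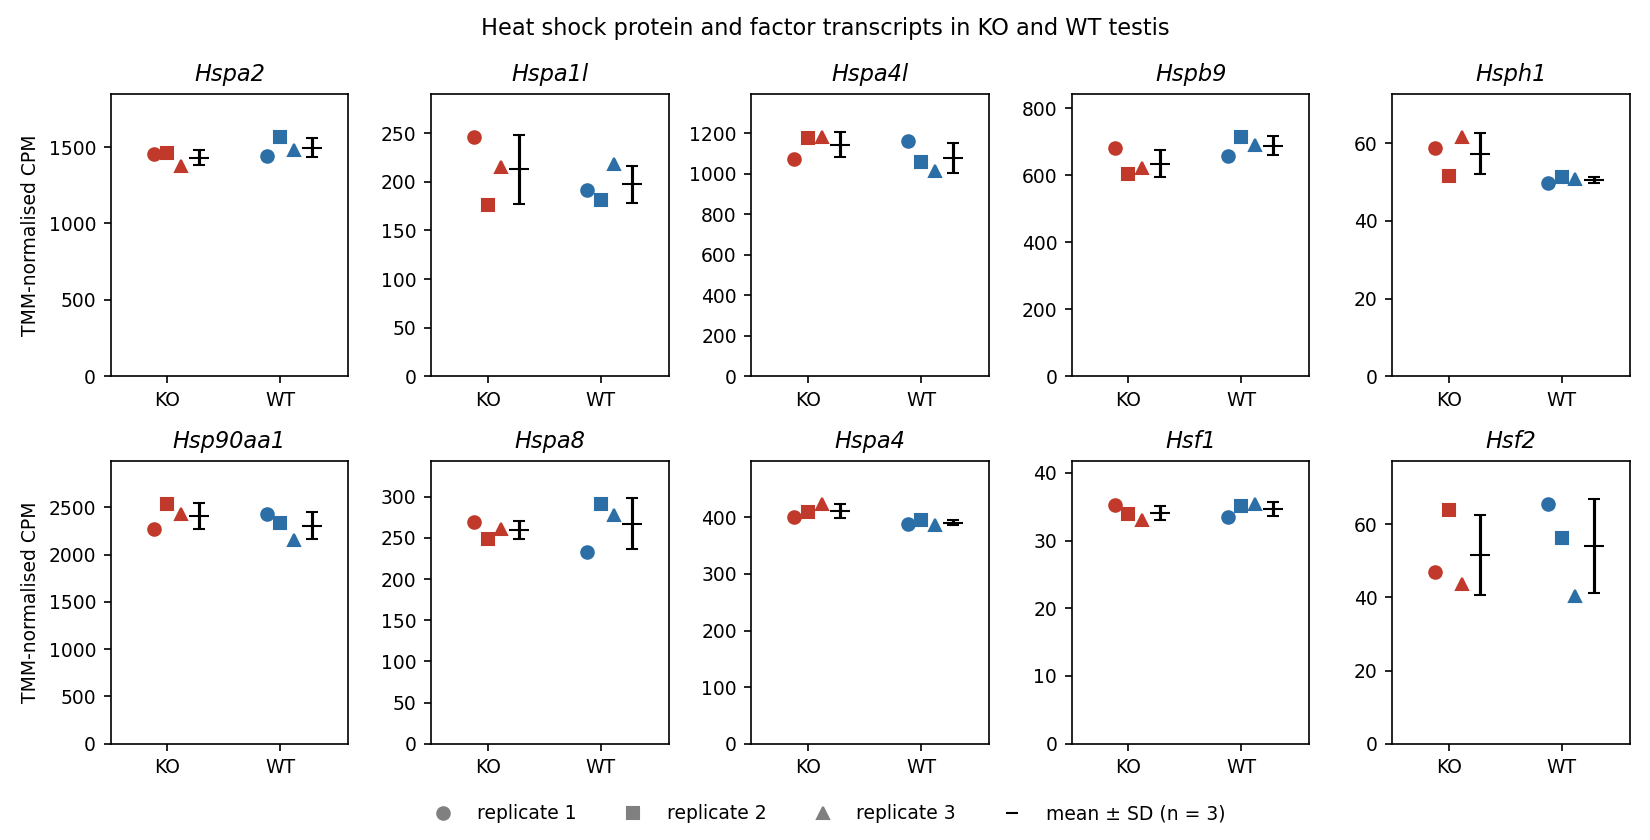
TMM-normalised CPM of the 10 genes, KO left of WT in each panel, with a symbol for each replicate and a bar for the mean ± SD of 3 libraries. KO and WT points overlap in every panel except Hsph1 and Hspa4, and Hsf2 shows the widest scatter.

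The heat shock factor genes had lower read levels than most of the 10. By reads Hsf2 stood above Hsf1 in every library, whereas their ranges per length overlapped. Hsf1, the master regulator of the stress response, had 35.2, 33.9 and 33.1 CPM in KO, against 33.5, 35.1 and 35.4 CPM in WT (log2 fold change -0.03, 95% interval -0.22 to 0.17). Its coefficient of variation over the 6 libraries was 2.93%, below the 4.03% that counting error alone gives for its depth. Hsf2, a factor found in spermatocytes and spermatids, had 46.9, 64.0 and 43.7 CPM in KO, against 65.5, 56.3 and 40.3 CPM in WT. Its coefficient of variation was 20.3%, where counting error gives 3.25%, and this scatter lay within the genotypes (log2 fold change -0.07, 95% interval -0.42 to 0.28). KO 2 and WT 1, the libraries with the lowest summed Leydig cell level, were the highest for Hsf2. Spermatocyte markers were mixed in these libraries. Sycp1 was highest in KO 2 and WT 1 (254.0 and 247.1 CPM), and Piwil1 was lowest in them (376.5 and 360.2 CPM). The part of cell makeup in the Hsf2 levels was not tested. Hsf5, a germ-cell factor gene of the same family that is no member of the 10, had 269.9, 323.3 and 266.4 CPM in KO and 321.3, 264.2 and 259.2 CPM in WT. Its highest libraries were again KO 2 and WT 1. This likeness was seen after the values were examined.

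Germ-cell and inducible genes were then set against each other within each library. The summed level of the 4 germ-cell genes was 1680, 1554 and 1563 CPM per kb in KO 1 to KO 3, against 1628, 1742 and 1685 in WT 1 to WT 3. That of Hsph1 and Hsp90aa1 was 584.6, 651.8 and 627.0 CPM per kb in KO, against 625.8, 601.7 and 553.8 in WT. Germ-cell genes exceeded the inducible pair by a ratio of 2.87, 2.38 and 2.49 in KO and 2.60, 2.90 and 3.04 in WT. The groups overlapped, and the mean log2 ratio was 1.36 ± 0.141 in KO and 1.51 ± 0.115 in WT, a difference of -0.141 that is about the size of the SD within a genotype. Hsp90aa1 supplied nearly all of the inducible sum, and with Hsph1 alone the difference was -0.252. On the germ-cell side Hspb9 was the largest part, with means of 875 CPM per kb in KO and 947 in WT. A ratio without Hspb9 was not computed. No test was made of these sums, which depend on the genes chosen.

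The wider chaperone system was examined through 80 further genes, of which 75 were tested. Of these 0 were called by edgeR, DESeq2 or limma-voom, and for 6 the p before adjustment was under 0.05 in edgeR, where 4.63% of all tested genes had such a p. Log2 fold changes had a median of 0.000618, with 38 above and 37 below 0, and 5 genes showed no overlap between groups, where 9.32% of all tested genes showed none. Hspb2, Hspb3, Cryaa, Hsf3 and Hsf4 were too scarce to test.

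Among 16 other inducible genes 5 lay above 0 and 11 below, with a median of -0.03, and 0 were called. Hspb1, the inducible small heat shock protein gene, had 24.3, 20.4 and 23.9 CPM in KO, against 25.7, 29.5 and 29.5 CPM in WT. The groups did not overlap (log2 fold change -0.30, 95% interval -0.54 to -0.07, unadjusted p = 0.0158 and adjusted p = 0.965 in edgeR). Stip1, which links Hsp70 to Hsp90, had 128, 124 and 112 CPM in KO, against 133, 146 and 134 CPM in WT. These groups did not overlap either (log2 fold change -0.18, unadjusted p = 0.042 and adjusted p = 0.965 in edgeR). Bag3, an Hsp70 co-chaperone gene, stood at 0.15. The inducible genes thus had values on both sides of 0, with Hsph1 on one side and Hspb1 on the other, and none passed the test.

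The 14 tested genes of other chaperones had a median log2 fold change of 0.03, 11 of them above and 3 below 0 and 0 called, with Hspa12b at 0.34, Hspa14 at 0.13, Hsp90ab1 at -0.07 and Hspa5 at -0.05. For 42 co-chaperone genes the median was -0.01, and for 3 the p before adjustment was under 0.05 in edgeR, namely Stub1, a ubiquitin ligase gene that acts with Hsp70 (log2 fold change -0.38), Dnajb7, of the Hsp40 family (0.27), and Hspbp1, an Hsp70 nucleotide exchange factor gene (-0.20). Each had an adjusted p of 0.965. Of 5 regulator genes 3 were tested, with Hsfy2 at 0.26, Hsf5 at 0.03 and Hsbp1, which binds heat shock factor trimers, at -0.05. Hsfy2 had 80.1, 99.0 and 96.6 CPM in KO, against 78.1, 84.9 and 67.8 CPM in WT, and the groups overlapped through KO 1.

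**Figure D4:**
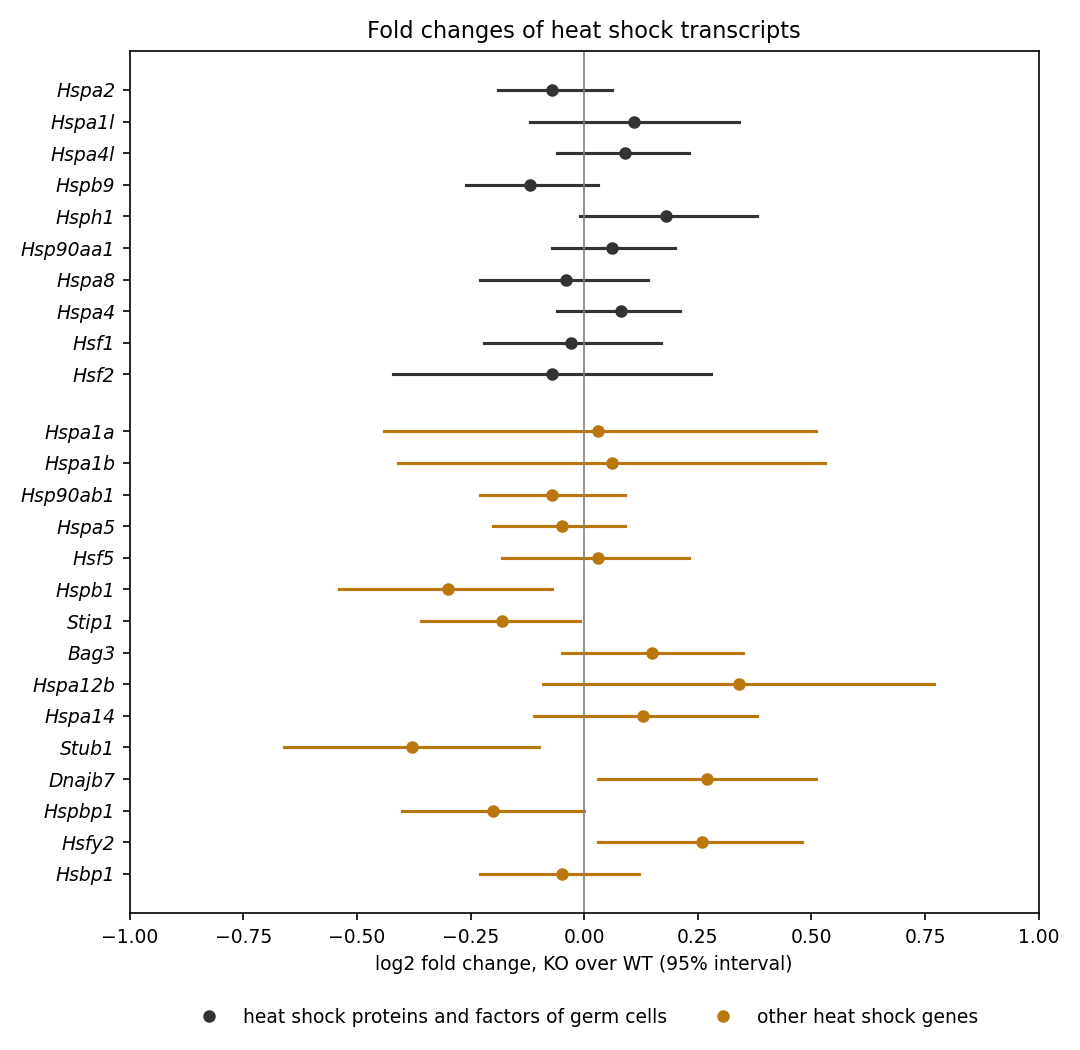
Log2 fold change of KO over WT with its 95% interval for the 10 genes (dark) and for 15 other heat shock genes (brown). All intervals of the 10 genes include 0, and Stub1 and Hspb1 lie farthest below 0.

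The transcripts whose pattern over the 6 libraries lay closest to that of Hspa2, among 11030 protein-coding genes averaging 5 CPM or more, were Serp1, Ndufa10 and Ppp1r32. The root mean square difference of their centred log2 CPM from that of Hspa2 was 0.0138, 0.0174 and 0.0209. Serp1, for example, had 125, 126 and 119 CPM in KO and 125, 137 and 125 CPM in WT. As for Hspa2, WT 2 was the highest library and KO 3 the lowest. The 3 genes were picked for this closeness out of 11030, so the likeness follows from the choice. Hspa2 itself varied little, with a coefficient of variation of 4.28% over the 6 libraries, and shared regulation was not tested.

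The precision of these libraries bounds what could have been missed. The 95% interval of the KO over WT fold ran from 0.876 to 1.04 for Hspa2, from 0.835 to 1.02 for Hspb9, from 0.960 to 1.17 for Hspa4l and from 0.951 to 1.15 for Hsp90aa1. It was wider for Hsph1 (0.990 to 1.30) and Hspa1l (0.918 to 1.27) and widest for Hsf2 (0.750 to 1.21). These are RNA levels, and chaperone protein was not measured.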

How the data were processed

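RNA from whole testis was measured by RNA sequencing in 3 KO and 3 WT libraries. Per the labels' protocols, TRIzol was used to extract RNA and a VAHTS mRNA-seq v2 kit to prepare libraries. HISAT2 2.0.0 and the mm10 build are named in the submitters' processing notes. The deposited table holds raw counts, as whole numbers for each Ensembl gene, with gene length. How reads were counted, with which annotation and strand setting, is not stated in the sources used here. Of 54532 gene identifiers, 98.3% had the same coordinates in GENCODE M21.

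Genes passing edgeR's filterByExpr (minimum count 10, minimum total 15) were fitted with TMM factors by glmQLFit and glmQLFTest, KO over WT, no covariate, threshold 0.05 (edgeR 4.0.16, limma 3.58.1, DESeq2 1.42.0, R 4.3.3). The fit was tested on simulated data. CPM are TMM-normalised. The lists, members and naming rule were chosen with earlier results of these data known. The rule named the 10 genes, the target, 5 family genes, up to 3 genes of smallest p per list and the 3 genes most like Hspa2. Odf1 and Hyou1 (for their family shares) and Insl3, Etv5, Dmrt1, Sycp1 and Piwil1 (as markers) were named outside this rule after their values were seen. Promoters came from RefSeq (GRCm38.p6). Alternatives were other scalings, filters and tests, a replicate block, libraries left out, and other ways of summing levels. Every pair of libraries differed by more than sampling noise (lowest chi-square per degree of freedom 4.33, between KO 2 and WT 1).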

Additional observations from a re-analysis of the deposited data

How the results depend on the processing

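None of the 10 genes and none of the 75 further tested genes was called under any of the 15 alternative settings. The number of genes called over the whole table, 1 with all 6 libraries, was 2 in DESeq2, 50 with no low-count filter, 9 without WT 1 and KO 2 together, and 1 to 3 with 1 library left out. Among the 10 genes the sign of the log2 fold change turned in 4 cases, each with 1 library left out. These were Hspa1l without KO 1 (range over the libraries left out -0.00883 to 0.232), Hsf2 without KO 3 (0.0372) and without WT 1 (0.0949; range -0.248 to 0.0949), and Hspa8 without WT 2 (0.0210; range -0.134 to 0.0210). The cause was not tested. Over the same omissions the Hsp90aa1 log2 fold change ranged from 0.0156 (without WT 3) to 0.108 (without KO 1), that of Hspa2 from -0.092 to -0.0318 (without WT 2) and that of Hspa4l from 0.0437 (without WT 3) to 0.141 (without WT 1). The median log2 fold change of the 10 ranged from -0.00558 to 0.0794 with 1 library left out. The log2 ratio of germ-cell to inducible genes, KO minus WT, ranged from -0.221 to -0.0855 with 1 library left out and from -0.252 to -0.0823 under the other summaries, all negative and within 1 SD of the value with all libraries. By principal transcript length the WT share of Hspa2 was 53.4% against 58.1% by deposited length, and that of Hspa4l 43.5% against 45.7%, since each gene is then divided by another length.

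Same-numbered KO and WT libraries did not clearly deviate together from their group means (r = -0.173, -0.0289 and 0.114 across genes). With 3 libraries per group this cannot decide whether the numbers pair the samples, which the labels do not state. Of all KO and WT pairs, the largest r was that of KO 2 with WT 1 (0.185), and its cause was not tested. A fit with the replicate number as a block called 0 of the 10 genes and 1 gene over the whole table. Depth limits the scarce genes most, Hspa1a and Hspa1b having at most 87 and 63 reads per library.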
